A study of Mus musculus with 3 samples.

Results

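The 9 genes described here encode transcription factors known for their part in effector lymphocytes: Tbx21 (the protein T-bet), Eomes (Eomesodermin), Zeb2, Id2, Prdm1 (Blimp-1), Runx3, Tox, Maf (c-Maf) and Rora (RORα). They were picked by symbol from the 32285 genes of the deposited matrices, and all 9 were found there. Mononuclear cells from the blood of C57BL/6 mice had been profiled in droplets with the 10x Chromium Single Cell 3′ v3 kit, which counts unique molecular identifiers (UMIs, 1 for each captured RNA molecule) at the 3′ end of transcripts. The 3 libraries were 1 of aged mice given AA for 1 month, 1 of aged mice given PBS (phosphate-buffered saline) for 1 month and 1 of young mice given PBS for 1 month. AA is ascorbic acid by the series title, which calls the older animals middle-aged. All groups had the same strain, and neither ages in weeks nor the number of mice behind a library is given in the sources used here. With 1 library per group there is no replicate error and no test, so an effect of age or AA cannot be told apart from a difference between animals or preparations. Every interval below is a 95% interval that covers counting error only.

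T-bet and Eomesodermin are related T-box factors that switch on interferon gamma, cytotoxic granule genes and the interleukin-15 receptor chain Il2rb in CD8 T cells and natural killer (NK) cells. ZEB2 works downstream of T-bet in terminally differentiated killer cells, while ID2 blocks E proteins, and Blimp-1 and RUNX3 favour effector and tissue-resident programmes over naive ones. TOX is known for exhausted and long-stimulated CD8 T cells, c-Maf for follicular helper, regulatory and interleukin-10-producing T cells, and RORα for innate lymphoid and helper T cells.

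CD8 T, CD4 T, NK and B cells were taken by marker genes, none of which is one of the 9 factors. The CD8 T gate held 2245, 842 and 2020 cells in the aged AA, aged and young libraries, the CD4 T gate 673, 538 and 1052, the NK gate 168, 224 and 310 and the B gate 4674, 3712 and 2348, of 10933, 9723 and 8768 cells kept. The median depth was 6391, 5616 and 5810 UMIs in CD8 T cells, 4589, 4068 and 4754 in CD4 T cells, 3269.5, 3152 and 3004 in NK cells and 3530.5, 3046 and 3396 in B cells, in the same order of libraries. Of the kept barcodes, 21 to 30 were shared by any 2 libraries, against 12.5 to 15.6 expected by chance. The source of the excess was not tested. The NK marker Ncr1 stood at 905, 626 and 596 CPM (UMIs over all UMIs of the gate, on the usual CPM scale) in NK cells against 1.08, 1.04 and 1.38 CPM in CD8 T cells, and Cd8b1 at 657, 721 and 663 CPM in CD8 T cells. The other NK gate genes, Klre1 and Klrb1c, stood highest in the aged and lowest in the young library in CD8 T cells. Klre1 was at 52.1, 95.8 and 12.8 CPM and Klrb1c at 5.55, 7.10 and 2.92 CPM in the same order of libraries. Whether this RNA came from NK cells or CD8 T cells was not tested. All 4 myeloid markers looked at stood higher in aged CD8 T cells than in the other CD8 T cells, with Csf1r at 4, 15 and 1 UMIs, Lyz2 at 5.82, 90.8 and 0.973 CPM, S100a8 at 9.61, 66.4 and 2.35 CPM and S100a9 at 12.04, 85.6 and 1.86 CPM in the aged AA, aged and young libraries. Haemoglobin RNA stood highest there too, with Hbb-bs at 1157, 3248 and 509 CPM in the same order. The share of free RNA was estimated as the median haemoglobin share of the cells over that of free RNA. It was 1.49, 1.87 and 0.843% in the CD8 T gate, and is no observation separate from haemoglobin. Subtracting the estimated free RNA left the counts of factors higher with age and of factors lower with AA, given below, as they were in CD8 T, CD4 T and NK cells. The part of haemoglobin RNA was not tested. The aged library also held the most monocytes, 114, 1032 and 51 cells in the same order.

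The promoters of 4 of the factors are printed because their genes part into 2 groups in the CD8 T cells below, Tbx21, Eomes and Zeb2 with the largest ratios of aged over young and Runx3 with a ratio near 1. Each window runs from 250 bases before to 50 bases after a RefSeq transcription start on GRCm38.p6, 5′ to 3′ on the strand of the gene, and for Zeb2 and Runx3 it is the first of several starts. Tbx21 lies at chr11:97115282-97115581 on the minus strand, Eomes at chr9:118477939-118478238 on the plus strand, Zeb2 at chr2:45117393-45117692 on the minus strand and Runx3 at chr4:135120395-135120694 on the plus strand. Capitals mark matches to any of 4 motifs searched on both strands: the T-box core GGTGTGA, the RUNX core TGTGGT, the ZEB E-box CAGGTG and the ETS core CCGGAA.
Tbx21: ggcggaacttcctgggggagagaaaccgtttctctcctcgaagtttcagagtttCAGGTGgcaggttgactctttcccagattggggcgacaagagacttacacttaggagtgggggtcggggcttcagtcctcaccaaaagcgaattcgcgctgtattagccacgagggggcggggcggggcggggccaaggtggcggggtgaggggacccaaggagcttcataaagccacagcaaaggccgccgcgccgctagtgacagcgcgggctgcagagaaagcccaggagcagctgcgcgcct
Eomes: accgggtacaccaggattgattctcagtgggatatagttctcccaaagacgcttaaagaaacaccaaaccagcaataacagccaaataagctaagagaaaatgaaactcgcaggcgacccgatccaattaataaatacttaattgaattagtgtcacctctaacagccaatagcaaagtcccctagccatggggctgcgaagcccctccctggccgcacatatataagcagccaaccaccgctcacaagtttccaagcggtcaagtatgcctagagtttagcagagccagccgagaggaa
Zeb2: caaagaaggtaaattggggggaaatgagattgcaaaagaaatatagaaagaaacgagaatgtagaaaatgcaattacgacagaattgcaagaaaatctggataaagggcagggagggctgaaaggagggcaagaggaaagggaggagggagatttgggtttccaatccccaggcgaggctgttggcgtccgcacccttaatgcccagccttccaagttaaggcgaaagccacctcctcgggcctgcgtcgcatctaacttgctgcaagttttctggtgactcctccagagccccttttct
Runx3: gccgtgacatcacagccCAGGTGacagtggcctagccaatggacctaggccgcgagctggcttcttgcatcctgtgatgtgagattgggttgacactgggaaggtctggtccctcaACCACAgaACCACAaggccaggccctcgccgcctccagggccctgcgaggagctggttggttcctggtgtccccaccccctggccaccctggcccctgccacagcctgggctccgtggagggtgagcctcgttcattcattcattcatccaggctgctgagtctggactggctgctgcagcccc
The capitals in the Tbx21 window are 1 CAGGTG, and those in the Runx3 window are 1 CAGGTG and 2 RUNX cores that read ACCACA on this strand. Neither the Eomes nor the Zeb2 window held any of these letters, which says nothing of binding elsewhere. Of 32851 promoter windows of the same length, 3.98% held the T-box core and 16.8% the RUNX core. The ZEB E-box was in 20.2% and the ETS core in 14.9%. Matches to the RUNX, ZEB and ETS letters are thus common, and those to the T-box core less so. RefSeq windows were found for 7 of the 9 genes, with 11 starts. Tox and Maf are named only.

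Tbx21, the gene of T-bet (chr11:97098071-97115331, GRCm38), had its levels in the order NK, CD8 T, CD4 T and B cells in all 3 libraries. The CD8 T level was 1.55 (1.02 to 2.43), 1.62 (1.01 to 2.68) and 1.54 (0.685 to 3.89) times the CD4 T level in the aged AA, aged and young libraries. Only the young interval included 1. In CD8 T cells it stood at 12.04 (10.3 to 13.9) CPM in the aged AA library, 16.3 (12.9 to 20.3) CPM in the aged library and 2.35 (1.57 to 3.38) CPM in the young library, from 178, 78 and 29 UMIs. Both aged libraries stood clear of the young library, and their own intervals overlapped. Below, the age ratio is the CPM of the aged over that of the young library, and the AA ratio is the CPM of the aged AA over that of the aged library, each divided by the median of the same ratio over all genes with at least 20 UMIs in the gate. The median behind the age ratio was 1.28 in CD8 T, 1.31 in CD4 T, 1.06 in NK and 1.22 in B cells, or 0.35, 0.39, 0.09 and 0.29 on the log2 scale. The median behind the AA ratio was 0.893, 0.902, 0.969 and 0.897, or -0.16, -0.15, -0.04 and -0.16 on the log2 scale. Tbx21 in CD8 T cells had an age ratio of 5.42 (95% interval 3.50 to 8.61) and an AA ratio of 0.828 (0.631 to 1.09). CD4 T cells gave 26, 24 and 8 Tbx21 UMIs, or 7.79, 10.1 and 1.53 CPM, and the age ratio was 5.00 (2.17 to 12.9). It was 9.46 with cells of at most 5% mitochondrial UMIs and 3.05 with gates that ask for more marker UMIs. In NK cells it stood at 126, 109.6 and 79.4 CPM, with an age ratio of 1.30 (0.950 to 1.78) and an AA ratio of 1.18 (0.855 to 1.63). The NK level was 10.4, 6.73 and 33.8 times the CD8 T level in the aged AA, aged and young libraries. B cells gave 22, 22 and 1 Tbx21 UMIs.

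The share of CD8 T cells with a Tbx21 UMI, with every cell thinned to 1000 UMIs, was 1.65, 2.38 and 0.0990% in the aged AA, aged and young libraries, and 7.04, 8.08 and 1.24% without thinning. The same thinned share in B cells, used here as a type with little T-bet, was 0.150, 0.270 and 0%. Thinning left out 4, 0 and 0 CD8 T, 0, 0 and 0 CD4 T, 8, 4 and 10 NK and 7, 14 and 5 B cells in the same order.

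Eomes (chr9:118478212-118486132, GRCm38), the T-box factor of memory CD8 T cells and mature NK cells, had its levels in the order NK, CD8 T, CD4 T and B cells in all 3 libraries. In CD8 T cells it stood at 54.1 (50.4 to 57.9) CPM in the aged AA library, 84.4 (76.3 to 93.0) CPM in the aged library and 14.2 (12.2 to 16.5) CPM in the young library. These 3 intervals did not overlap, with the aged AA library between the other libraries. The age ratio was 4.65 (95% interval 3.89 to 5.59) and the AA ratio 0.717 (0.636 to 0.811). After thinning, 4.77, 9.14 and 1.19% of CD8 T cells had an Eomes UMI in the aged AA, aged and young libraries, against 0.0643, 0 and 0% of B cells. Without thinning these shares were 22.1, 27.6 and 5.99% of CD8 T cells and 0.278, 0.0808 and 0.128% of B cells.

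NK cells ran the other way, with Eomes at 236, 175 and 281 CPM in the aged AA, aged and young libraries, and so highest in the young library. There the age ratio was 0.587 (0.477 to 0.720) and the AA ratio 1.39 (1.09 to 1.77). The NK level was 4.36, 2.08 and 19.8 times the CD8 T level in the aged AA, aged and young libraries, so the 2 cell types lay closest together in the aged library. CD4 T cells gave 17, 23 and 12 Eomes UMIs, with an age ratio of 3.19 (1.53 to 7.04), which was 6.91 in cells of at most 5% mitochondrial UMIs. The AA ratio of Eomes was 0.586 (0.294 to 1.15) in CD4 T cells and 0.114 with the stricter gates. If all Ncr1 in the CD4 T gate were NK RNA, that RNA would bring 0.390, 0.587 and 1.17 of the 5.10, 9.64 and 2.30 CPM of Eomes in the aged AA, aged and young libraries, the largest part in the young library.

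Zeb2 (chr2:44983632-45117395, GRCm38), a zinc-finger repressor of terminal effector CD8 T cells and mature NK cells, had the largest age ratio of the 9 genes in CD8 T cells. Its CPM in CD8 T cells was 28.8 (26.1 to 31.6) in the aged AA library, 61.2 (54.4 to 68.6) in the aged library and 4.30 (3.22 to 5.62) in the young library, from 425, 293 and 53 UMIs. The 3 intervals did not overlap, and the aged AA library again lay between the others. Its age ratio was 11.1 (95% interval 8.29 to 15.2), and 6.79 in cells of at most 5% mitochondrial UMIs. Its AA ratio was 0.526 (0.452 to 0.613), and 0.639 with that limit. The mitochondrial share of all CD8 T UMIs was 4.52, 3.17 and 5.18% in the aged AA, aged and young libraries.

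Monocytes and B cells also hold Zeb2, at 685, 527 and 598 CPM in monocytes and 70.3, 89.9 and 63.8 CPM in B cells of the aged AA, aged and young libraries. If all Lyz2 in the CD8 T gate were monocyte RNA, that RNA would bring 0.332, 2.39 and 0.0650 CPM of Zeb2 with it, against the measured 28.8, 61.2 and 4.30 CPM. Lyz2 is itself limited in the lymphocyte gates, which can hold such estimates low, and how far was not tested. Monocytes gave 0, 2 and 0 UMIs of Tbx21 and 0, 1 and 0 of Eomes. Zeb2 in CD4 T cells gave only 40, 29 and 13 UMIs, or 11.99, 12.2 and 2.49 CPM, of which monocyte RNA scaled by Lyz2 would bring 0.137, 2.45 and 0.166 CPM and NK RNA scaled by Ncr1 0.683, 1.43 and 0.997 CPM. The age ratio of Zeb2 in CD4 T cells was 3.72 (1.87 to 7.79), but 2.10 when every barcode of at least 500 UMIs and 250 genes was used, 1.91 with predicted doublets kept and 1.14 with the stricter gates. Its AA ratio was 1.09 (0.661 to 1.83) in CD4 T cells, and 0.987 as a plain ratio of CPM and 3.20 with the stricter gates. In NK cells Zeb2 stood at 413, 429 and 239 CPM, with an age ratio of 1.69 (1.43 to 1.99) and an AA ratio of 0.993 (0.838 to 1.17). Both aged libraries were thus higher than the young library in CD8 T and NK cells, and they differed from each other beyond counting error in CD8 T cells.

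**Figure D1:**
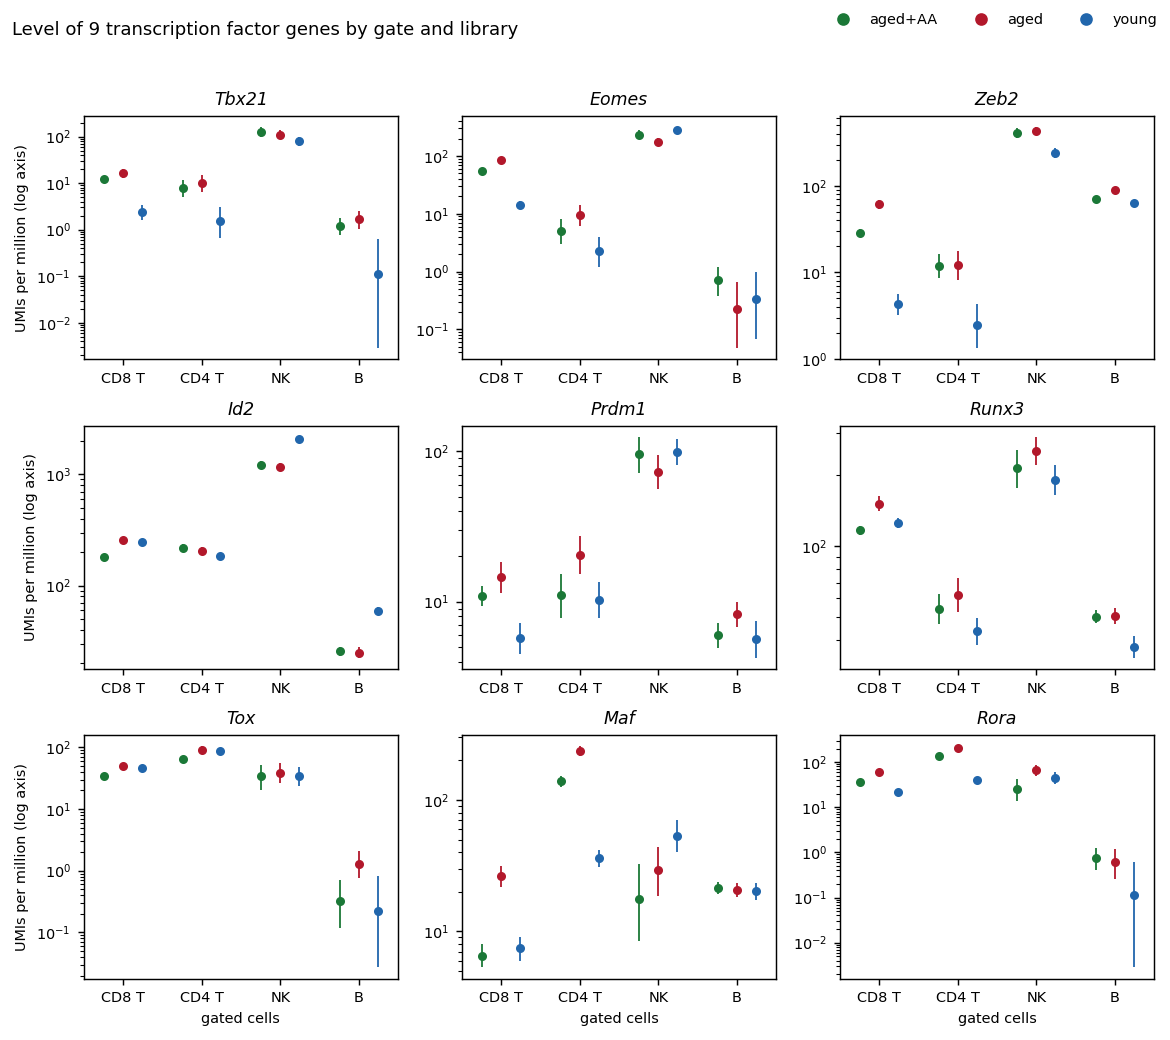
Level of each factor in CD8 T, CD4 T, NK and B cells (horizontal axis) in CPM on a log axis, 1 panel per gene, with the aged AA library in green, the aged library in red and the young library in blue. Points are summed UMIs of a gate and bars are exact Poisson 95% intervals. Tbx21, Eomes and Zeb2 in CD8 T cells lie lowest in the young library, at 2.35, 14.2 and 4.30 CPM, while Id2 in NK cells lies highest there.

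Id2 (chr12:25093799-25097140, GRCm38), whose protein binds E proteins and is needed for NK cells and effector CD8 T cells, differed between libraries in NK and B cells. NK cells held 1220.2, 1177 and 2087 CPM of Id2 in the aged AA, aged and young libraries, from 689, 966 and 2103 UMIs. Both aged libraries were lower than the young library and close to each other. The age ratio was 0.530 (95% interval 0.491 to 0.572) and the AA ratio 1.07 (0.969 to 1.18). The thinned share of NK cells with an Id2 UMI was 65.0, 67.3 and 81.0% (91.1, 92.0 and 94.8% without thinning), against 1.65, 1.87 and 4.74% of B cells (7.51, 6.84 and 14.0%), and NK cells with a UMI averaged 4.50, 4.69 and 7.15 UMIs each. In B cells the aged libraries were also lower, at 25.7, 25.1 and 59.6 CPM in the aged AA, aged and young libraries, with an age ratio of 0.344 (0.299 to 0.395). Monocytes held 551, 324 and 1289 CPM in the same order.

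In T cells the Id2 levels lay closer together. CD8 T cells held 179.5, 255 and 246 CPM of Id2 in the aged AA, aged and young libraries and CD4 T cells 220.0, 206 and 184 CPM. Id2 had an age ratio of 0.811 (0.758 to 0.867) in CD8 T cells and 0.853 (0.764 to 0.952) in CD4 T cells, but the plain ratios of CPM were 1.04 and 1.12, so the direction turns with the scaling used. The AA ratio of Id2 was 0.788 (0.737 to 0.844) in CD8 T cells and 1.19 (1.06 to 1.33) in CD4 T cells, both inside 1.5-fold. NK cells had the highest and B cells the lowest Id2 of the 4 gates in all 3 libraries.

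Prdm1 (chr10:44437177-44528501, GRCm38), the gene of the repressor Blimp-1, stood at 10.96, 14.6 and 5.76 CPM in CD8 T cells of the aged AA, aged and young libraries, from 162, 70 and 71 UMIs. Both aged libraries were above the young library. The age ratio was 1.99 (95% interval 1.41 to 2.80) and the AA ratio 0.839 (0.630 to 1.13). In CD4 T cells it stood at 11.1, 20.5 and 10.3 CPM, highest in the aged library, with an age ratio of 1.51 (1.01 to 2.27) and an AA ratio of 0.599 (0.380 to 0.937). The age ratio in CD4 T cells lies at the 1.5-fold limit and was 1.42 to 1.47 with a depth limit, a lower mitochondrial limit or doublets kept, and 1.01 with the stricter gates. NK cells held 95.6, 73.1 and 99.2 CPM, with an age ratio of 0.692 (0.494 to 0.963). Blimp-1 is also the factor of antibody-secreting cells, and the B gate, where the plasma-cell gene Jchain stood at 408, 812 and 42.4 CPM, held 5.97, 8.28 and 5.68 CPM of Prdm1. NK cells were highest of the 4 gates in all 3 libraries.

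Runx3 (chr4:135120652-135177990, GRCm38), which represses Cd4 and keeps the CD8 lineage, stayed within 1.5-fold between libraries in CD8 T, CD4 T and NK cells. CD8 T cells held 116, 151 and 125 CPM in the aged AA, aged and young libraries, and CD4 T cells 54.3, 62.0 and 43.6 CPM. The CD8 T level was 2.14, 2.43 and 2.87 times the CD4 T level in the 3 libraries. NK cells were higher still, at 213, 252 and 191 CPM, and B cells held 50.2, 50.5 and 37.5 CPM. The age ratio of Runx3 was 0.942 (0.861 to 1.03) in CD8 T cells, where the plain ratio of CPM was 1.20 and the direction turns with the scaling. It was 1.08 (0.874 to 1.34) in CD4 T cells and 1.24 (1.02 to 1.52) in NK cells. The AA ratio was 0.864 (0.791 to 0.944), 0.970 (0.776 to 1.21) and 0.870 (0.689 to 1.09) in CD8 T, CD4 T and NK cells.

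Tox (chr4:6686353-6991557, GRCm38), a factor of long-stimulated CD8 T cells that also acts in CD4 T-cell development, was higher in CD4 T cells than in CD8 T cells in every library. CD4 T cells held 64.1, 90.5 and 85.7 CPM and CD8 T cells 34.4, 49.9 and 46.5 CPM in the aged AA, aged and young libraries, a CD8 T level of 0.536, 0.551 and 0.542 times the CD4 T level. The age ratio of Tox was 0.841 (0.720 to 0.979) in CD8 T cells and 0.804 (0.680 to 0.947) in CD4 T cells, and the plain ratios of CPM were 1.07 and 1.06, on the other side of 1. Its AA ratio was 0.771 (0.660 to 0.903) in CD8 T cells and 0.786 (0.647 to 0.954) in CD4 T cells. NK cells held 19, 32 and 34 Tox UMIs and B cells 6, 17 and 2.

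Maf (chr8:115682942-115707794, GRCm38), the gene of the helper T-cell factor c-Maf, was highest in CD4 T cells of the 4 gates in both aged libraries and in NK cells in the young library, and it had the AA ratio farthest from 1 of the 9 genes in CD8 T cells. CD4 T cells held 138 (126 to 151) CPM in the aged AA library, 235 (216 to 255) CPM in the aged library and 36.0 (31.0 to 41.5) CPM in the young library, 3 intervals that did not overlap. Maf had an age ratio of 4.97 (95% interval 4.21 to 5.90) and an AA ratio of 0.652 (0.575 to 0.739). The second ratio was 0.818 with the stricter gates and so inside 1.5-fold there. The thinned share of CD4 T cells with a Maf UMI was 10.995, 21.0 and 2.66% in the aged AA, aged and young libraries (29.0, 41.6 and 8.65% without thinning), against 1.97, 2.35 and 2.35% in B cells (6.93, 6.17 and 6.05%).

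CD8 T cells held 6.56, 26.3 and 7.46 CPM of Maf in the aged AA, aged and young libraries, from 97, 126 and 92 UMIs. Here the aged library stood alone, with the aged AA library next to the young library. Monocyte RNA scaled by Lyz2, itself limited in the gate, would bring 0.0143, 0.190 and 0.00138 CPM of it. No CD8 T cell held more than 4, 13 and 9 Maf UMIs. The age ratio was 2.76 (2.09 to 3.65) and the AA ratio 0.279 (0.212 to 0.367). The thinned share of CD8 T cells with a Maf UMI was 0.759, 3.21 and 0.891% (3.12, 6.41 and 3.27% without thinning), and cells with one averaged 1.39, 2.33 and 1.39 UMIs, so both were highest in the aged library. The thinned CD8 T shares of the aged AA and young libraries lie below those of B cells. B cells held Maf themselves, from 395, 272 and 182 UMIs in the aged AA, aged and young libraries, so their share is no floor for Maf. The low CD8 T levels of the aged AA and young libraries are read with caution. NK cells gave few Maf UMIs, 10, 24 and 54 in the aged AA, aged and young libraries, with an age ratio of 0.513 (0.303 to 0.844). The AA ratio in NK cells was 0.625 (0.267 to 1.36), and 0.409 with the stricter gates. B cells held 21.4, 20.7 and 20.3 CPM in the 3 libraries, nearly level.

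Rora (chr9:68653786-69388246, GRCm38), the gene of the nuclear receptor RORα, went with Maf in CD4 T cells. CD4 T cells held 139 (127 to 152) CPM in the aged AA library, 204 (186 to 223) CPM in the aged library and 40.2 (34.9 to 46.0) CPM in the young library, and again no intervals overlapped. Rora had an age ratio of 3.87 (95% interval 3.28 to 4.57) and an AA ratio of 0.756 (0.664 to 0.860). The thinned share of CD4 T cells with a Rora UMI was 9.66, 18.2 and 2.95% (29.6, 40.0 and 7.22% without thinning), against 0.0643, 0.0541 and 0.0427% of B cells (0.300, 0.189 and 0.0426%). CD8 T cells held 37.1, 61.4 and 22.3 CPM in the aged AA, aged and young libraries, with an age ratio of 2.15 (1.82 to 2.55) and an AA ratio of 0.677 (0.587 to 0.783). In NK cells Rora gave 14, 55 and 45 UMIs, or 24.8, 67.0 and 44.7 CPM, lowest in the aged AA library, with an age ratio of 1.41 (0.934 to 2.14) and an AA ratio of 0.382 (0.196 to 0.696).

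T cells with neither co-receptor detected, 1278, 628 and 2228 cells in the aged AA, aged and young libraries, were set beside the gated T cells. They held 71.5, 161 and 25.8 CPM of Maf, 81.5, 144 and 39.5 CPM of Rora, 8.10, 14.6 and 3.15 CPM of Tbx21 and 11.4, 27.6 and 4.33 CPM of Zeb2. All 4 genes were highest in the aged library and lowest in the young library in these cells too. Eomes, at 29.6, 25.7 and 5.22 CPM, was highest in the aged AA library. Runx3 stood at 73.1, 99.6 and 47.3 CPM, with an age ratio of 1.56 (1.34 to 1.82), past 1.5-fold in these cells. These cells can be CD4 or CD8 T cells whose co-receptor RNA was missed, and gamma delta T cells.

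Counted over the 9 factors, 6 of 9 stood at least 1.5-fold higher in aged than in young CD8 T cells, namely Tbx21, Eomes, Zeb2, Prdm1, Maf and Rora, and 0 stood lower. Of the 11477 genes with at least 20 UMIs in that gate, 15.7% stood as much higher and 13.9% as much lower. The same 6 factors stood higher in aged than in young CD4 T cells, where 17.5% of all genes counted stood higher and 15.1% lower. As plain ratios of CPM the 6 stayed so in both gates, but 32.5% of all genes in CD8 T and 36.2% in CD4 T cells then stood higher. With the stricter gates the count was 3 of 8 factors counted in CD4 T cells. In NK cells 1 factor, Zeb2, stood higher and 3, Eomes, Id2 and Maf, stood lower, beside 14.6% and 13.1% of all genes counted. In B cells 3 of 8 factors counted, Tbx21, Tox and Rora, stood higher and 1, Id2, lower, beside 14.3% and 12.2%, the first 3 from 1 or 2 UMIs in the young library. The median age ratio over the factors was 2.15 in CD8 T, 3.19 in CD4 T, 1.09 in NK and 1.17 in B cells, where that of all genes is 1 by construction. The factors were chosen with earlier results of these data known. These counts and those for AA below are therefore a description and no independent support.

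Between the aged AA and aged libraries, 0 factors counted stood 1.5-fold higher in the aged AA library in any of these 4 gates, with 9 counted in CD8 T, CD4 T and NK cells and 8 in B cells, where Eomes had 13, 3 and 3 UMIs and was not counted. In CD8 T cells 2, Zeb2 and Maf, stood lower, beside 8.88% of all genes counted higher and 8.84% lower. As plain ratios of CPM the count was 4, with Eomes and Rora added. In CD4 T cells 3, Eomes, Prdm1 and Maf, stood lower, beside 9.77% higher and 10.7% lower, and 1 did with the stricter gates. In NK cells 2, Maf and Rora, stood lower, beside 11.9% and 14.2% of all genes, and in B cells 1, Tox, beside 6.86% and 8.54%. All 9 AA ratios in CD8 T cells lay below 1, with a median of 0.771. The intervals of Tbx21 and Prdm1 included 1. Of the ratios counted as lower, those of Eomes in CD4 T cells (0.294 to 1.15) and Maf in NK cells (0.267 to 1.36) had intervals that included 1 too. Both comparisons use the same aged library, so a value that is off in that library moves both in opposite directions.

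**Figure D2:**
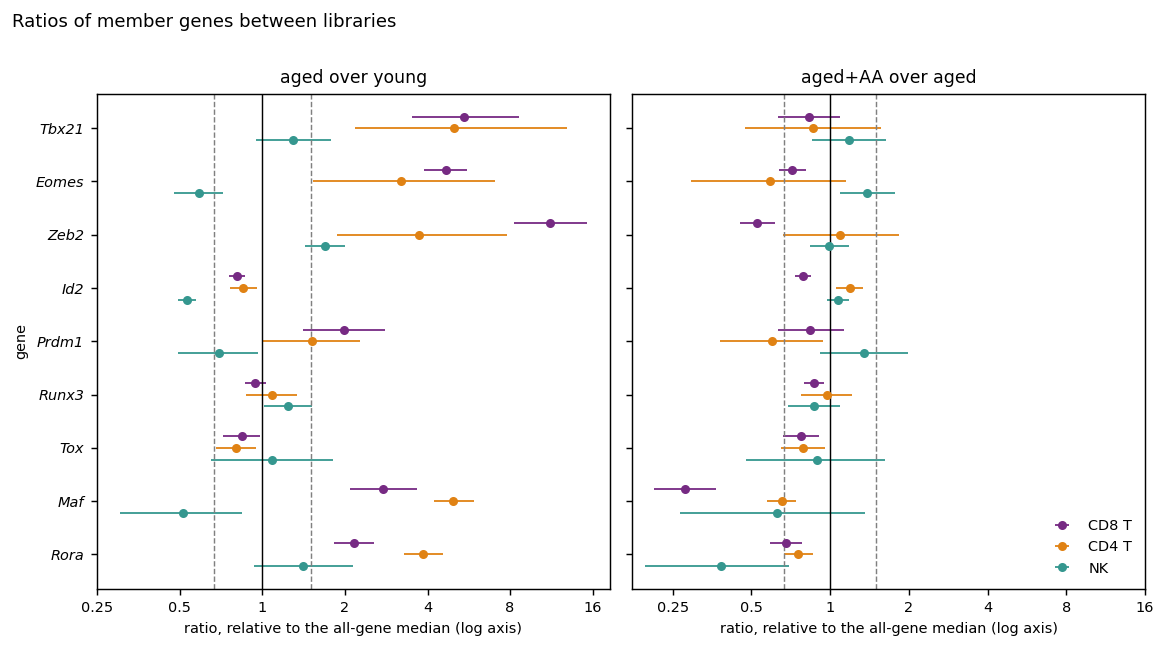
Age ratio (left) and AA ratio (right) of each factor (rows) in CD8 T, CD4 T and NK cells on a log axis. Bars are 95% counting intervals and dashed lines mark 1.5-fold. Zeb2 in CD8 T cells lies at 11.1 on the left and 0.526 on the right, and Eomes in NK cells at 0.587 and 1.39.

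Against the young library directly, aged AA CD8 T cells held Tbx21, Eomes and Zeb2 at relative ratios of 4.52 (3.04 to 6.95), 3.36 (2.85 to 3.99) and 5.91 (4.43 to 8.02). Maf in these cells was at 0.777 (0.578 to 1.04), with an interval that includes 1. In CD4 T cells Maf was at 3.25 (2.73 to 3.87) and Rora at 2.93 (2.48 to 3.46). In CD8 T cells Id2 was at 0.644 (0.611 to 0.679) and Tox at 0.653 (0.579 to 0.737), both higher in the young library, and Prdm1 was at 1.68 (1.26 to 2.25). Runx3 was at 0.820 (0.765 to 0.879) and Rora at 1.47 (1.27 to 1.71) in these cells.

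CD8 T cells were next split by UMIs of Ccl5, a chemokine of antigen-experienced CD8 T cells, and those with at least 2 Ccl5 UMIs by whether they had a UMI of Gzmk, Klrg1 or Cx3cr1. These are ranges of counts and not cell types, and the Ccl5 0 range can hold cells whose Ccl5 RNA was missed. The Ccl5 0 range held 769, 260 and 1565 cells in the aged AA, aged and young libraries, or 34.3, 30.9 and 77.5% of CD8 T cells. Cells with 1 Ccl5 UMI made up 11.05, 9.03 and 6.68%, cells with at least 2 and no effector UMI 45.6, 39.3 and 14.3%, and those with an effector UMI 9.09, 20.8 and 1.58%. The young library had by far the largest Ccl5 0 share, and its last range rests on 32 cells.

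Tbx21, Eomes and Zeb2 stood higher in cells with at least 2 Ccl5 UMIs than in cells with 0 or 1, in every library. Zeb2 gave 4, 5 and 9 UMIs in Ccl5 0 cells of the aged AA, aged and young libraries. It stood at 18.9, 32.0 and 8.50 CPM in cells with at least 2 Ccl5 UMIs and no effector UMI, and at 238, 313 and 119.7 CPM in those with an effector UMI. Of the 425, 293 and 53 Zeb2 UMIs of the CD8 T gate, few therefore lay in Ccl5 0 cells, fewest by share in the aged libraries. Over all cells with at least 2 Ccl5 UMIs the age ratio was 4.43 (3.21 to 6.23) for Zeb2, 2.39 (1.46 to 4.09) for Tbx21 and 2.20 (1.78 to 2.74) for Eomes, against 11.1, 5.42 and 4.65 over the whole gate. All 3 were smaller within the range than over the gate and still above 1.5. This range still mixes cells without and with an effector UMI, whose shares differ between libraries. In these parts, in that order, the age ratio was 3.02 (1.79 to 5.33) and 2.20 (1.45 to 3.47) for Zeb2. For Tbx21 it was 2.30 (1.27 to 4.38) and 1.55 (0.598 to 5.11), and for Eomes 1.86 (1.46 to 2.39) and 2.58 (1.52 to 4.73).

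Within cells with an effector UMI, Eomes stood at 96.8, 221 and 71.8 CPM in the aged AA, aged and young libraries, with the aged library highest. The age ratio was 2.58 (1.52 to 4.73) and the AA ratio 0.468 (0.364 to 0.601). Tbx21 in those cells was 55.3, 44.1 and 23.9 CPM, from 64, 31 and 5 UMIs, so the aged AA and aged values do not differ beyond their counting error. Even in Ccl5 0 cells Eomes stood at 9.59, 18.9 and 6.21 CPM, with an age ratio of 2.54 (1.56 to 4.05) and an AA ratio of 0.560 (0.342 to 0.930).

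Maf was highest in the aged library in 3 of the 4 ranges, and in cells with 1 Ccl5 UMI it gave only 13, 3 and 10 UMIs in the aged AA, aged and young libraries. It stood at 6.46, 20.2 and 6.66 CPM in Ccl5 0 cells, 3.68, 11.5 and 9.85 CPM in Ccl5-high cells with no effector UMI and 23.3, 96.8 and 0 CPM in those with one, in the same order. In the second of these the aged and young intervals overlapped. The last of these came from 27, 68 and 0 UMIs, and for the 32 young cells 0 UMIs has an exact upper limit of 17.7 CPM. The AA ratio of Maf was 0.353 (0.205 to 0.606), 0.353 (0.197 to 0.636) and 0.257 (0.158 to 0.407) in the same 3 ranges. Foxp3, the factor of regulatory T cells, which also hold Maf, gave 6, 2 and 18 UMIs in the CD8 T gate of the aged AA, aged and young libraries.

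Tox and Id2 parted between the ranges. Tox in cells with an effector UMI stood at 70.0, 138 and 57.5 CPM in the aged AA, aged and young libraries, with an age ratio of 2.02 (1.11 to 4.05) and an AA ratio of 0.541 (0.398 to 0.734). In Ccl5 0 cells Tox was 37.5, 33.2 and 49.7 CPM and its age ratio was 0.558 (0.409 to 0.747). The value of Tox over the whole CD8 T gate sums over these opposite directions. Id2 stood at 153, 187 and 237 CPM in Ccl5 0 cells and at 496, 471 and 876 CPM in cells with an effector UMI, highest in the young library in both. The age ratio of Id2 was 0.660 (0.581 to 0.746) and 0.452 (0.376 to 0.545) in these ranges. In Ccl5-high cells with no effector UMI, the largest range of both aged libraries, Id2 stood at 147, 252 and 231 CPM in the aged AA, aged and young libraries, highest in the aged library. There its age ratio was 0.879 (0.777 to 0.994), with a plain ratio of CPM of 1.09 on the other side of 1, and its AA ratio was 0.641 (0.578 to 0.712).

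**Figure D3:**
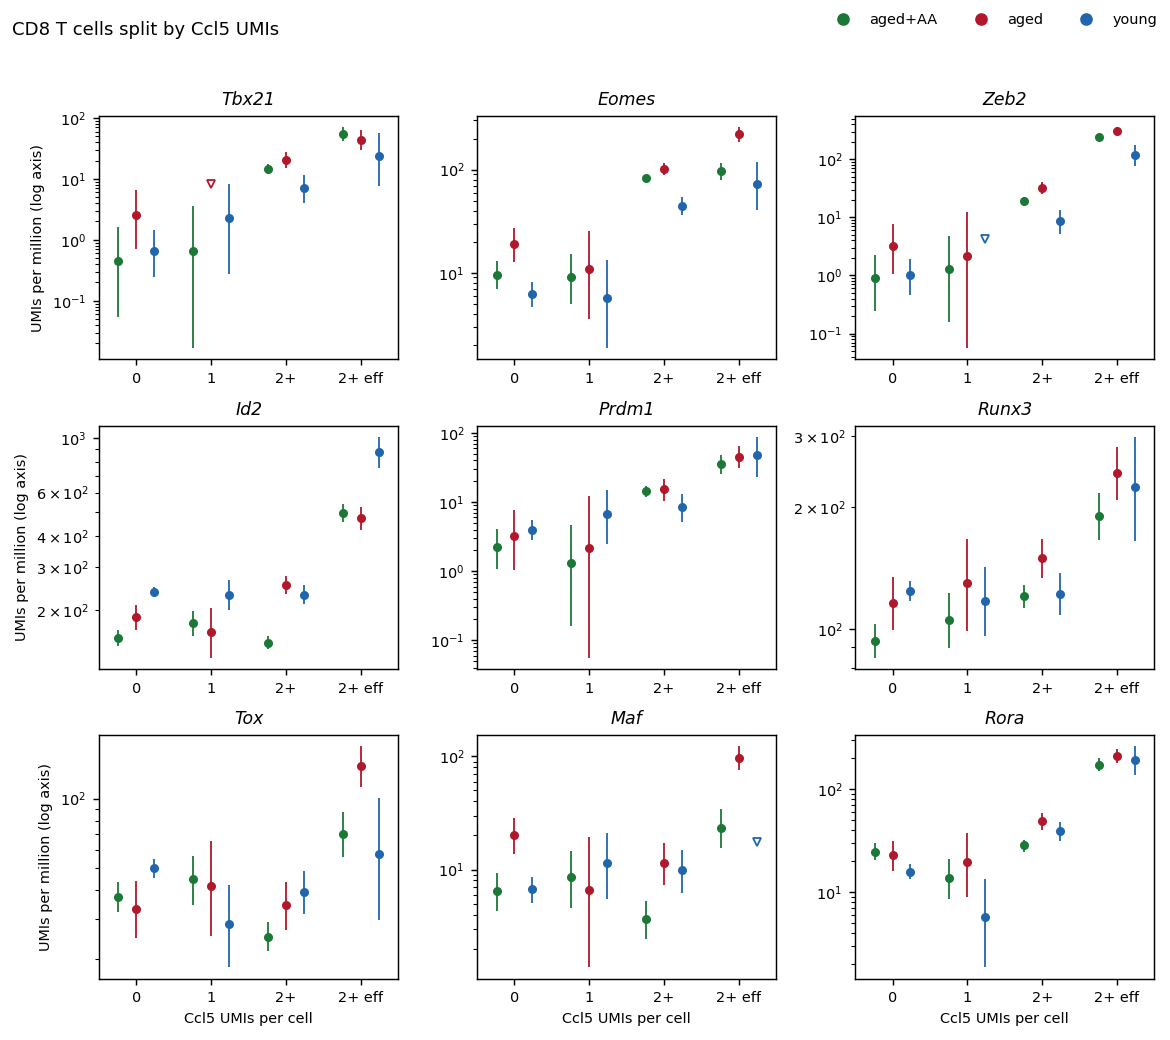
Level of each factor in CD8 T cells with 0, 1, or at least 2 Ccl5 UMIs and, last, at least 2 with a UMI of Gzmk, Klrg1 or Cx3cr1 (horizontal axis), in CPM on a log axis. Colours are the aged AA (green), aged (red) and young (blue) libraries, bars are exact Poisson 95% intervals, and an open triangle is a range with 0 UMIs drawn at its upper limit. Zeb2 lies at 238, 313 and 119.7 CPM in the last range, while Maf in the aged library lies above the other libraries in that range, at 96.8 CPM.

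In Ccl5 0 cells 2 of 7 factors counted stood 1.5-fold higher in the aged than in the young library (Eomes and Maf) and 2 lower (Id2 and Tox), beside 13.5% and 14.0% of all genes counted there. In cells with at least 2 Ccl5 UMIs 4 of 9 stood higher (Tbx21, Eomes, Zeb2 and Maf) and 0 lower, beside 16.9% and 14.0%. In the aged AA against the aged library, 0 stood higher in either range. Those lower were 2 of 7 in Ccl5 0 cells, Eomes and Maf, beside 12.4% of genes higher and 12.2% lower, and 4 of 9 in Ccl5-high cells, Zeb2, Tox, Maf and Rora, beside 8.99% and 8.64%. Ccl5-high cells mix parts without and with an effector UMI, whose shares differ between libraries. In these parts, in that order, the AA ratio of Zeb2 was 0.650 (0.483 to 0.882) and 0.810 (0.676 to 0.971). For Rora it was 0.640 (0.504 to 0.818) and 0.880 (0.708 to 1.10), and for Tox 0.802 (0.609 to 1.07) and 0.541 (0.398 to 0.734). Only Maf was past 1.5-fold in both parts.

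CD4 T cells were split in turn into those with a Foxp3 UMI, then at least 2 Ccl5 UMIs, then a UMI of S100a4, a gene of antigen-experienced T cells, and those with none of these. The last held 458, 323 and 984 cells in the aged AA, aged and young libraries, or 68.1, 60.0 and 93.5% of CD4 T cells. The S100a4 range held 17.7, 23.4 and 2.19%, the Ccl5 range 12.2, 10.8 and 2.28% and the Foxp3 range 2.08, 5.76 and 2.00%. In the young library the 3 ranges with a marker rest on 23, 24 and 21 cells.

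Maf and Rora differed between libraries in the cells with none of the markers. There Maf stood at 74.9, 175 and 27.5 CPM in the aged AA, aged and young libraries, with an age ratio of 5.06 (4.08 to 6.31) and an AA ratio of 0.474 (0.387 to 0.580). Rora stood at 66.0, 129.96 and 10.9 CPM, with an age ratio of 9.48 (6.92 to 13.2) and an AA ratio of 0.562 (0.449 to 0.703). Both genes were in the order aged, aged AA, young. Of 6 factors counted in these cells, these 2 stood 1.5-fold higher in aged than in young, beside 16.3% of all genes higher and 14.7% lower. The same 2 stood lower in aged AA than in aged, beside 11.6% higher and 12.8% lower.

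In S100a4 cells the aged libraries were close together for these 2 genes, with Maf at 313, 351 and 174 CPM and Rora at 342, 315 and 503 CPM in the aged AA, aged and young libraries. Their AA ratios were 0.933 (0.762 to 1.14) and 1.13 (0.925 to 1.39). Rora was thus highest in the young S100a4 cells, from 214, 176 and 75 UMIs, though the young CD4 T gate as a whole was lowest. Ccl5-high CD4 T cells held 13, 18 and 10 of the 17, 23 and 12 Eomes UMIs and 29, 18 and 5 of the 40, 29 and 13 Zeb2 UMIs of CD4 T cells. Most of the little Eomes in CD4 T cells therefore came from this range in all 3 libraries, and most of the Zeb2 in the aged libraries. Within this range the age ratio was 1.05 (0.460 to 2.55) for Eomes and 0.917 (0.325 to 2.79) for Tbx21. For Zeb2 it was 2.10 (0.751 to 7.24). Each interval included 1, while over the whole CD4 T gate the ratios were 3.19, 5.00 and 3.72. Foxp3 cells had 0 Eomes UMIs in all 3 libraries and 175, 309.8 and 139.7 CPM of Maf, from 14, 50 and 17 UMIs.

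**Figure D4:**
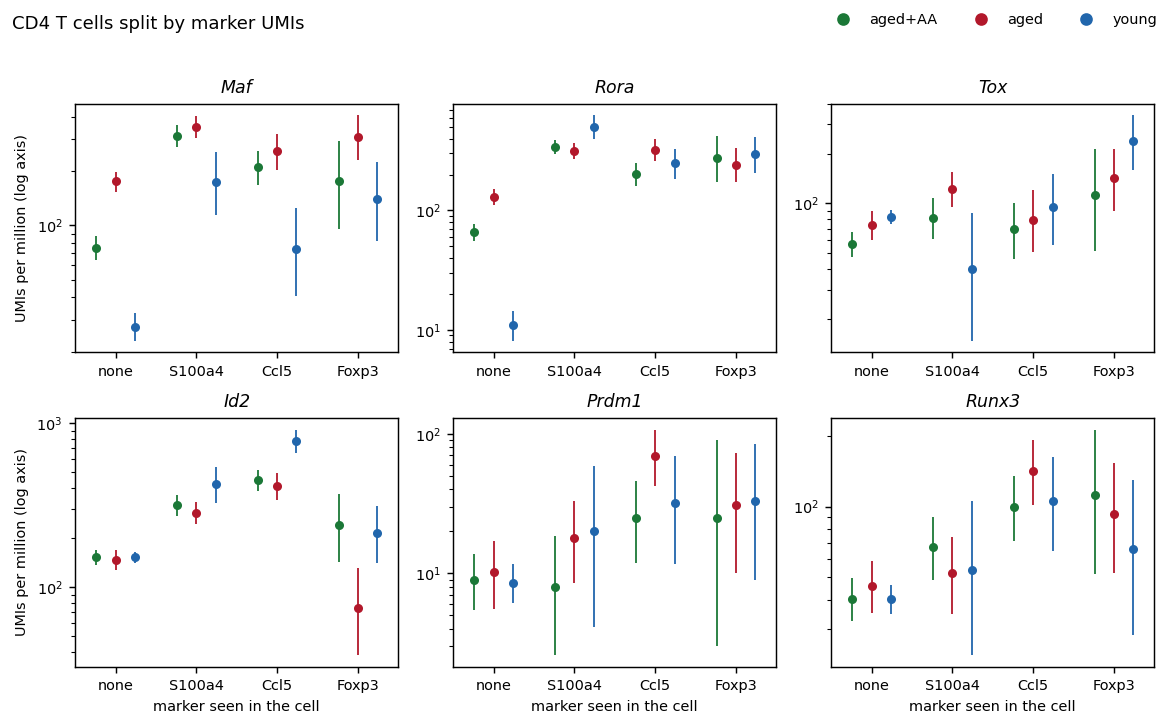
Level of Maf, Rora, Tox, Id2, Prdm1 and Runx3 in CD4 T cells with none of the markers, an S100a4 UMI, at least 2 Ccl5 UMIs or a Foxp3 UMI (horizontal axis), in CPM on a log axis. Colours are the aged AA (green), aged (red) and young (blue) libraries and bars are exact Poisson 95% intervals. In cells with no marker, Maf lies at 74.9, 175 and 27.5 CPM and Rora at 66.0, 129.96 and 10.9 CPM in that order of libraries, while the Maf and Rora points of the aged AA and aged libraries lie close together in S100a4 cells.

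Within a library, cells with a UMI of 1 factor were compared with cells without it, as a description that shares depth between the genes. CD8 T cells with a Zeb2 UMI (208, 141 and 34 cells in the aged AA, aged and young libraries) had a median depth of 5230, 3714 and 5648 UMIs, against 6461, 5870 and 5810 UMIs in cells without one. They held Rora at 148, 183 and 217 CPM, against 26.8, 43.4 and 18.5 CPM. The ratio was 5.53 (4.61 to 6.62), 4.22 (3.31 to 5.37) and 11.7 (8.49 to 15.98), so Rora was higher beside Zeb2 in all 3 libraries. For Tbx21 it was 4.96 (3.54 to 6.85), 4.46 (2.74 to 7.17) and 5.95 (1.15 to 19.4), with 3 UMIs behind the young value. For Eomes it was 2.54 (2.11 to 3.03), 2.37 (1.88 to 2.97) and 5.55 (3.15 to 9.17). Tox did not follow Zeb2, with ratios of 1.31 (0.972 to 1.74), 0.934 (0.610 to 1.38) and 1.10 (0.567 to 1.94).

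CD8 T cells with an Eomes UMI differed from that. Beside Eomes, Rora was at 0.594 (0.469 to 0.744), 1.10 (0.844 to 1.41) and 2.38 (1.68 to 3.29) times its level in cells without Eomes in the aged AA, aged and young libraries, below 1 in the aged AA library and above 1 in the young library. Maf was at 0.416 (0.207 to 0.766), 1.35 (0.917 to 1.98) and 0.137 (0.00343 to 0.784) times. The interval lay below 1 in the aged AA and young libraries and included 1 in the aged library. The young interval is very wide, and its value rests on very few UMIs. Eomes in cells with a Maf UMI was at 0.628 (0.357 to 1.03), 2.15 (1.51 to 2.97) and 0.157 (0.00395 to 0.885) times its level in cells without, the young value again from very few UMIs. Tox in cells with a Maf UMI was at 2.84 (2.03 to 3.89), 4.41 (3.11 to 6.12) and 1.24 (0.798 to 1.86) times. Rora in CD4 T cells with a Maf UMI stood at 286, 317 and 170.2 CPM, against 77.1, 119 and 25.7 CPM in cells without one. In NK cells with a Tbx21 UMI, Eomes was at 1.06 (0.726 to 1.53), 0.483 (0.314 to 0.724) and 0.821 (0.601 to 1.10) times its level in NK cells without, and the interval lay below 1 in the aged library and included 1 in the other libraries.

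Of 25 genes of partner and opposing factors, 22 were counted in CD8 T cells, and 5 stood 1.5-fold higher and 6 lower in aged than in young, beside 15.7% and 13.9% of all genes counted, with a median age ratio of 0.874. The lowest was Id3, the inhibitor of naive and memory-precursor T cells and counterpart of Id2, at 0.286 (0.246 to 0.332), and the highest Irf4, induced by antigen receptor signals, at 4.21 (1.97 to 9.58). In aged AA against aged cells 1 stood higher and 3 lower, beside 8.88% and 8.84% of all genes, with AA ratios from Irf8 at 0.582 (0.434 to 0.786) to Klf2, the factor of lymphocyte circulation, at 1.60 (1.56 to 1.64). In CD4 T cells 7 of 22 stood higher and 5 lower in aged than in young (all genes 17.5% and 15.1%), and 4 and 4 in aged AA against aged (all genes 9.77% and 10.7%). Tox2, a relative of Tox, had the highest age ratio in CD4 T cells at 8.46 (4.62 to 16.7) and Id3 the lowest at 0.345 (0.288 to 0.412). In NK cells 1 of 20 stood higher and 3 lower in aged than in young (all genes 14.6% and 13.1%), and 3 and 3 in aged AA against aged (all genes 11.9% and 14.2%).

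Of 22 genes known as targets of these factors or as effector genes, 18 of 20 counted stood 1.5-fold higher in aged than in young CD8 T cells and 0 lower, beside 15.7% and 13.9% of all genes counted, with a median age ratio of 5.01. Ccl3, a chemokine gene, was the highest, with 344 UMIs in the aged and 3 in the young library, an age ratio of 231 (78.4 to 1126). The lowest was the integrin gene Itgb7 at 0.805 (0.742 to 0.873). In aged AA against aged cells 0 stood higher and 9 lower, beside 8.88% and 8.84% of all genes, with a median AA ratio of 0.676, from Ccl3 at 0.0907 (0.0707 to 0.115) to Xcl1 at 1.48 (1.21 to 1.82). In CD4 T cells 15 of 18 stood higher and 0 lower in aged than in young (all genes 17.5% and 15.1%), and 1 higher and 7 lower in aged AA against aged (all genes 9.77% and 10.7%). In NK cells 3 of 17 stood higher and 3 lower in aged than in young (all genes 14.6% and 13.1%), and 0 and 1 in aged AA against aged (all genes 11.9% and 14.2%). The list holds Ccl5, Gzmk, Klrg1 and Cx3cr1, the genes that split the CD8 T cells above. Both lists were chosen with earlier results of these data known, so their counts beside all genes are a description and no independent support.

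The genes most like each factor were taken by Pearson's r of log2(CPM + 1) over the 12 points of 4 gates and 3 libraries, among 9883 genes, points that share libraries and gate markers. For Tbx21 they were Adora2a (0.988), Osbpl3 (0.988) and Efhd2 (0.986), and for Eomes Klrc1 (0.992), Ttc7b (0.990) and Klre1 (0.988), of which Klre1 was used to gate NK cells. For Zeb2 they were Plek (0.980), Mirt1 (0.978) and Lax1 (0.974), and for Id2 Fosl2 (0.978), Sytl3 (0.976) and Mxd1 (0.974). For Prdm1 they were Pfn1 (0.985), Cap1 (0.983) and Pgm2 (0.982), and for Runx3 Frmd4a (0.975), Ccdc102a (0.974) and Cd160 (0.974). For Tox they were Atp1b3 (0.993), Fyb (0.993) and Leprotl1 (0.992), for Rora Gata3 (0.979), Ikzf2 (0.975) and Tnfaip3 (0.975), and for Maf Dera (0.908), Ifnar1 (0.903) and Bcl2a1d (0.902). Maf had the lowest values of the 9 and so the pattern least shared with any other gene. Among the factors themselves r was highest for Tox and Rora, at 0.957, and lowest for Zeb2 and Tox, at -0.316.

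Some factors overlap genes annotated on the opposite strand, and whether the counting used strand is not given in the sources used here. These partners had few UMIs in the kept cells, at most 183 for Zeb2os beside 4729 for Zeb2, and 42 for Gm33460 beside 2009 for Eomes. For Runx3, Tox, Maf and Rora the partner had 2 to 11 UMIs. UMIs are counted at the 3′ end and not per length, so levels are compared within a gene only.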

How the data were processed

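Expression in blood mononuclear cells of the 3 libraries was deposited as raw UMI counts per gene and barcode, and the file headers name Cell Ranger. Per the submitters' processing notes, mm10 and Seurat 3.1.0 were used as well. The deposited counts held every barcode, so cells were called here: barcodes above the 99th percentile of the top 5000 divided by 10, or of at least 500 UMIs and different from free RNA (barcodes ranked 45001 to 90000) at a false discovery rate of 0.01 over 10000 draws. A cell was kept with 250 or more genes and no more than 10% mitochondrial UMIs, and doublets predicted by Scrublet (scanpy 1.11.5), 3.76 to 4.47% of a library, were removed. Of 14158, 16229 and 10828 barcodes called in the aged AA, aged and young libraries, the gene limit removed 2258, 5835 and 1206. The mitochondrial limit removed 540, 216 and 489. The libraries totalled 64496639 to 94944551 UMIs. Python 3.11.15, numpy 2.4.6, scipy 1.17.1, pandas 2.3.3 and matplotlib 3.10.9 were used.

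Gates asked for UMIs of marker genes. CD8 T and CD4 T cells had at least 2 of Cd3d, Cd3e and Cd3g, at least 1 of their own co-receptor (Cd8a and Cd8b1, or Cd4), 0 of the other and at most 1 of a set of B-cell genes that includes Cd79a, Cd79b and Ms4a1. NK cells had at least 2 of Ncr1, Klrb1c and Klre1, no Cd3 UMI and at most 1 B-gene UMI, and B cells at least 3 B-gene UMIs with no Cd3 or NK UMI. Haemoglobin genes were at most 5% and Lyz2, S100a8 and S100a9 below 0.2% of a lymphocyte's UMIs. The stricter gates asked for 3 Cd3 and 2 co-receptor UMIs, 4 NK UMIs or 6 B UMIs.

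UMIs were summed per gate and library and divided by all UMIs of the gate (CPM), with exact Poisson intervals. Ratios have exact conditional binomial intervals and shares exact (Clopper-Pearson) intervals, all at 95%. Genes with at least 20 UMIs over the 3 libraries were counted as higher or lower from 1.5-fold relative to the all-gene median ratio. Cells were thinned to 1000 UMIs for shares. Only the ratio step and its intervals were tested on simulated data, as Poisson counts of the CD8 T gate. All 9 factors are named, with the 3 most-like genes of each among genes of at least 200 UMIs, and from each list the highest and lowest gene with at least 50 UMIs. The 9 factors and the lists were chosen with earlier results of these data known. Promoters are from RefSeq on GRCm38.p6, and gene positions from the GENCODE M21 annotation of GRCm38.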

Additional observations from a re-analysis of the deposited data

Results flagged for a closer look

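2 factors stood at least 1.5-fold higher in both T-cell gates and at least 1.5-fold lower in NK cells for aged against young. Eomes had an age ratio (aged over young, relative to all genes of the gate) of 4.65 in CD8 T cells and 3.19 in CD4 T cells, but 0.587 in NK cells. Maf had age ratios of 2.76 in CD8 T cells and 4.97 in CD4 T cells, but 0.513 in NK cells. With 1 library per group, no difference between cell types was tested. The NK value of Maf rests on 24 UMIs in the aged and 54 in the young library, that of Eomes on 144 and 283. The CD4 T value of Eomes rests on 23 UMIs in the aged and 12 in the young library, with an interval of 1.53 to 7.04. Prdm1 lay on opposite sides of 1 as well, at 1.99 in CD8 T cells, 1.51 in CD4 T cells and 0.692 (0.494 to 0.963) in NK cells, the last inside 1.5-fold.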

How the results depend on the processing

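No paired analysis was possible because each group has 1 library, and for the same reason no library could be left out. The count of factors 1.5-fold higher in aged than in young CD8 T cells was 5 or 6 of 9 under all 11 alternatives. With the stricter gates the factors higher in aged than in young were 3 in CD4 T cells and 2 in NK cells, and those lower in aged AA than in aged CD4 T cells were 1. With plain CPM, not divided by the all-gene median, 2 factors stood higher in aged than in young NK cells and 4 lower in aged AA than in aged CD8 T cells. Plain CPM without ribosomal, mitochondrial and haemoglobin genes also gave 2 in NK cells. A 2-fold limit gave 0 higher in aged NK cells, and 1, 0 and 1 lower in aged AA CD8 T, CD4 T and NK cells. No ratio past 1.5-fold changed sides of 1. Of the factors' ratios under the alternatives, 523 moved by less than their counting interval and 43 by more. Shares of cells with a UMI follow the depth they are thinned to, and 136 moved while 26 did not. Depth limits Tbx21, Eomes, Tox and Rora in B cells, where a library had 1 to 22 UMIs, and Tbx21, Eomes and Zeb2 in CD4 T cells and Tox, Maf and Rora in NK cells, where it had 8 to 55 UMIs. PCR duplicates are removed by UMIs, but free RNA, animals and preparation are not covered by any interval.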
